A study of Drosophila melanogaster with 8 samples.

Results

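Col4a1, vkg, SPARC, LanA, LanB1 and LanB2 are 6 of the 13970 genes in a table of RNA recovered with the antibody J2 from Drosophila larvae. They were chosen by name, as secreted proteins of the basement membrane whose mRNAs are translated at the endoplasmic reticulum (ER). J2 binds double-stranded RNA whatever its sequence. The control larvae carried no listed allele (genotype ";;"). The dmpnpaseKO larvae (";;dmpnpase-/dmpnpase-") were homozygous for a CRISPR/Cas9 deletion that shifts the reading frame of CG11337, the gene of the mitochondrial RNase PNPase. Both genotypes had the genetic background wDah and were collected as whole larvae at 4 days after egg laying, so all tissues contributed RNA. A cytosolic and a mitochondrial fraction were prepared from each genotype by differential centrifugation, the extract protocol calls the fractions purified, and each of the 4 groups had 2 libraries, 8 in all. The labels do not say whether the 2 libraries of a group came from separate cultures of larvae, so p-values measure only the spread between these libraries. The fractions raise a question for these genes in particular, because a mitochondrial fraction can hold ER.

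A basement membrane is a sheet of extracellular matrix that underlies epithelia and wraps muscles, fat body and gut. Laminin trimers self-assemble on cell surfaces and collagen IV is then crosslinked into a network that gives the sheet its tensile strength. Both are folded and assembled in the ER before secretion, and their mRNAs are held at the ER membrane by the ribosomes that feed the nascent chain into the translocon. In Drosophila larvae much of the collagen IV is made by the fat body and carried to other tissues by the hemolymph, and hemocytes, the fly's blood cells, also make it.

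Col4a1 (FBgn0000299) encodes the α1 chain of collagen IV and vkg (FBgn0016075) encodes the α2 chain. The chains join in one trimer. The genes lie head to head on chromosome 2L of BDGP6, with Col4a1 on the plus strand from 5029609 to 5037279 and vkg on the minus strand from 5012144 to 5028191. Their starts are 1417 bases apart. The vertebrate collagen IV gene pairs are also divergent. SPARC (FBgn0026562, chromosome 3R from 26869238 to 26871995, minus strand) encodes a collagen-binding glycoprotein that is needed for collagen IV to be deposited properly. LanA (FBgn0002526, chromosome 3L from 6203831 to 6218022, minus strand) encodes a laminin α chain. LanB1 (FBgn0261800, chromosome 2L from 7811438 to 7820771, plus strand) encodes the β chain. LanB2 (FBgn0267348, chromosome 3L from 9614914 to 9623980, plus strand) encodes the γ chain. The exonic length ranges from 1201 bases for SPARC to 11690 bases for LanA, and no other gene of this annotation overlaps any of the 6. The values are TPM, the abundance of a transcript relative to all others in its library after correction for transcript length. Levels of recovered RNA can so be compared between the genes. Every library holds RNA recovered with J2, so a value gives neither protein nor the level of all mRNA of a gene. How far recovery with J2 differs between the genes is not known.

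Nuclear-encoded genes other than rRNA pseudogenes held between 0.0446% and 1.18% of the TPM of a library, and the rRNA pseudogenes held between 42.7% and 96.6%. The number of nuclear-encoded genes above 0 ranged from 954 to 11019 in 7 libraries. It was 39 in dmpnpaseKO cytosol replicate 2, where all 75 of the tested ribosomal protein genes were also listed at 0. That library stands apart from the others. For Col4a1, vkg and SPARC, the comparisons that use the dmpnpaseKO cytosol in limma are given with and without it. The correlations and the tests of shares in the dmpnpaseKO cytosol are given only with it. It also enters the estimate of spread in every limma fit to all libraries. A value of 0 can therefore be a failed estimate, and such a gene is described only as listed at 0. CG11337 was listed at 0 in 6 of the 8 libraries and was at most 0.0415 TPM, a level at which the labels of genotype cannot be checked. TPM carry no read depth, so the counting error of a single value is unknown.

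Col4a1 was the most abundant of the 6 genes. In the dmpnpaseKO mitochondrial fraction it was at 15.7 and 12.4 TPM. In the dmpnpaseKO cytosol it was at 9.26 TPM in replicate 1 and listed at 0 in replicate 2. In the control it was at 0.116 and 1.23 TPM in the cytosol and at 2.08 and 0.522 TPM in the mitochondrial fraction. The 3 dmpnpaseKO libraries with a value were thus all above the 4 control libraries, and the control fractions overlapped.

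The level of vkg followed the same order of libraries at a lower level. It was at 6.95 and 4.49 TPM in the dmpnpaseKO mitochondrial libraries, and at 3.40 TPM and listed at 0 in the dmpnpaseKO cytosolic pair. In the control, vkg was at 0.140 and 0.664 TPM in the cytosol and at 1.09 and 0.330 TPM in the mitochondrial fraction. As for Col4a1, the highest control value came from mitochondria replicate 1 and the lowest from cytosol replicate 1.

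SPARC was the only one of the 6 genes listed at 0 in a control mitochondrial library. It was at 0.383 TPM and at 0 there, and at 0 and 0.678 TPM in the control cytosolic libraries. In dmpnpaseKO mitochondria SPARC was at 5.65 and 2.88 TPM, and in the dmpnpaseKO cytosolic pair at 2.85 TPM and at 0. Its value in dmpnpaseKO cytosol replicate 1 was therefore almost that of dmpnpaseKO mitochondria replicate 2.

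The laminin genes were lower. LanA was at 2.69 and 1.64 TPM in the dmpnpaseKO mitochondrial libraries, at 0.555 TPM and 0 in the dmpnpaseKO cytosolic pair, at 0.200 and 0.106 TPM in the control mitochondrial libraries and at 0.0188 and 0.0480 TPM in the control cytosolic libraries. LanA is the one gene of the 3 for which the highest cytosolic library of each genotype lay below the lowest mitochondrial library by more than 2-fold. LanB1 was at 1.26 and 0.508 TPM in the dmpnpaseKO mitochondrial libraries, at 0.487 TPM and 0 in the dmpnpaseKO cytosolic pair, at 0.102 and 0.0485 TPM in the control mitochondrial libraries and at 0.00927 and 0.0382 TPM in the control cytosolic libraries. LanB2 was at 1.32 and 0.656 TPM, 0.452 TPM and 0, 0.116 and 0.0638 TPM, and 0 and 0.0393 TPM in the same 4 groups. In the control, all 3 laminin genes were higher in both mitochondrial libraries than in both cytosolic libraries, whereas Col4a1, vkg and SPARC overlapped between the fractions. The control cytosolic libraries held only 954 and 2063 nuclear-encoded genes above 0, and the mitochondrial libraries 8725 and 4814. How many other low genes were separated in the same way was not counted, so this is not shown to be particular to the laminin genes.

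**Figure D1:**
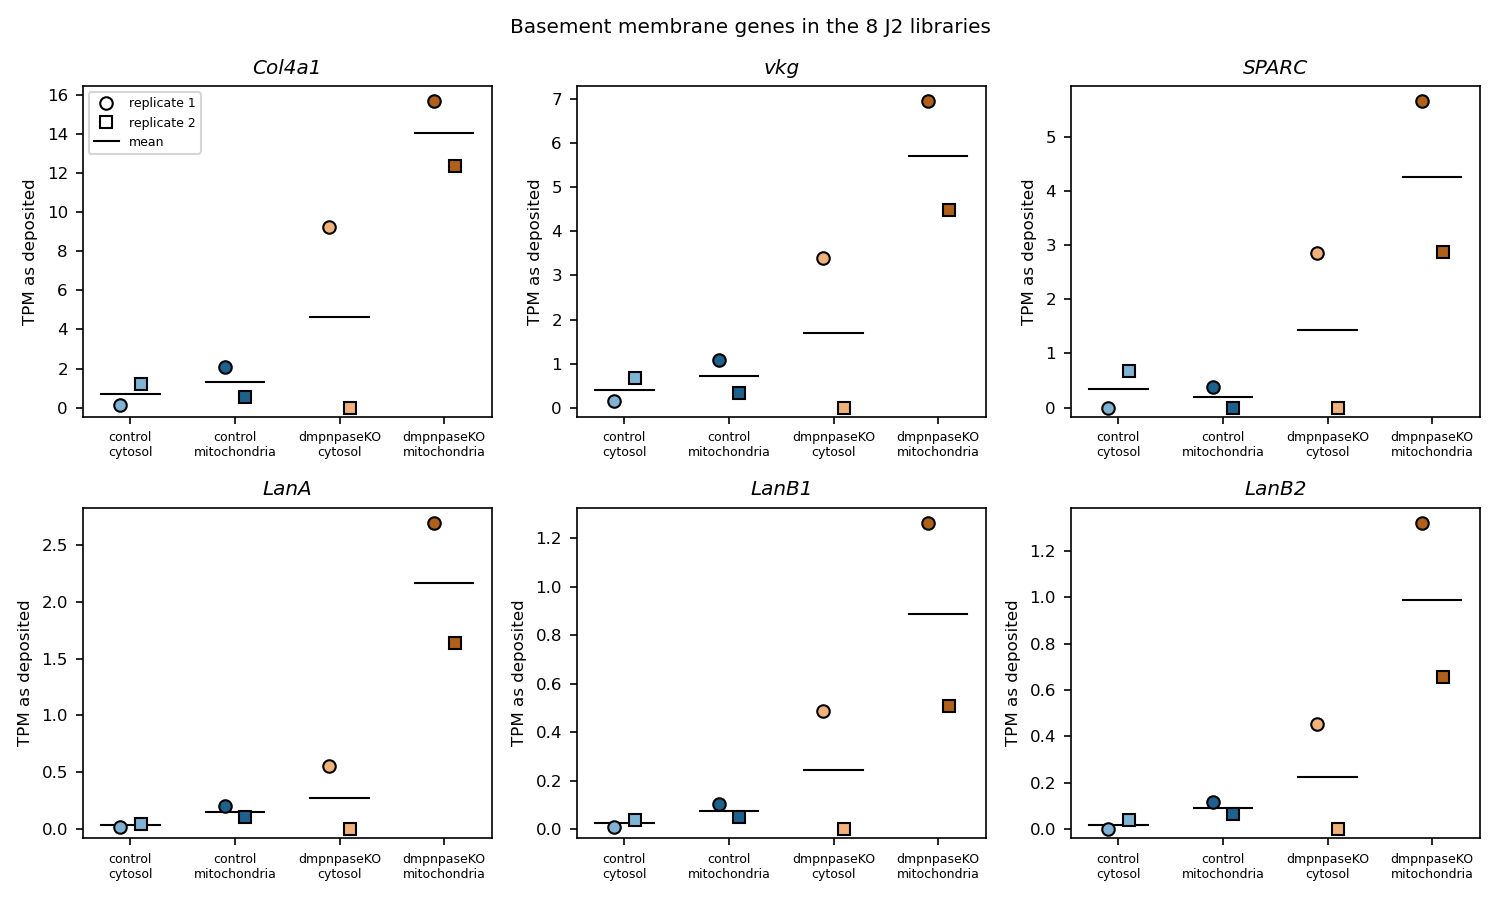
Each panel plots the deposited TPM of 1 gene (y axis, linear, own scale) in the 4 groups, with replicate 1 as a circle, replicate 2 as a square and the mean of the 2 libraries as a line. All 6 genes were highest in the dmpnpaseKO mitochondrial libraries (Col4a1 at 15.7 and 12.4 TPM), and all 6 were listed at 0 in dmpnpaseKO cytosol replicate 2.

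The order of the genes was nearly the same in the 7 libraries with values. Col4a1 was above vkg in 6 of 7 libraries, the exception being control cytosol replicate 1. The level of vkg was above that of LanA in 7 of 7 libraries and above that of SPARC in 6 of 7. SPARC was above LanA in 5 of 7 libraries. LanA was above LanB2 in 7 of 7 libraries, and LanB2 was above LanB1 in 5 of 7, so LanB1 and LanB2 did not differ beyond their spread between libraries.

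The ratio of Col4a1 to vkg needs no scaling of the libraries, since both values come from the same one. It was 0.832 and 1.86 in the control cytosolic libraries, 1.91 and 1.58 in the control mitochondrial libraries, 2.72 in dmpnpaseKO cytosol replicate 1, and 2.25 and 2.76 in the dmpnpaseKO mitochondrial libraries. In RNA recovered with J2, Col4a1 thus exceeded vkg in 6 of the 7 libraries with values. The exception was control cytosol replicate 1, in which both genes were at their lowest values above 0. The ratio does not measure the protein chains. In the mitochondrial fraction the log2 ratio was 1.32 ± 0.21 (SD, n = 2) in dmpnpaseKO and 0.80 ± 0.19 (SD, n = 2) in the control. The difference of 0.52 had p = 0.33 by a two-sided exact permutation test, the smallest p that 2 libraries against 2 can give. Between the control fractions the log2 ratio differed by 0.48 (exact permutation p = 0.667).

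With both fractions pooled, a comparison chosen after seeing the data, the log2 ratio was 1.36 ± 0.16 (SD, n = 3) in dmpnpaseKO and 0.56 ± 0.56 (SD, n = 4) in the control. The 3 dmpnpaseKO ratios were all above the 4 control ratios. The difference of 0.80 had an exact permutation p = 0.0571, the smallest that 3 libraries against 4 can give. After Benjamini-Hochberg adjustment over the 12 exact permutation tests of ratios it was 0.686. This test ignores fraction, with 1 cytosolic library in dmpnpaseKO and 2 in the control. It counts both fractions of a genotype as replicates. The labels do not say whether the fractions came from the same larvae, so these libraries may not be independent. In dmpnpaseKO the ratio in cytosol replicate 1 lay between those of the 2 mitochondrial libraries.

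The ratio of LanB1 to LanB2, the β and γ chains of the laminin trimer, varied least. It lay between 0.761 and 1.08 in the 6 libraries where both were above 0. The ratio of LanA to LanB1 was 2.03 and 1.26 in the control cytosolic libraries, 1.95 and 2.19 in the control mitochondrial libraries, 1.14 in dmpnpaseKO cytosol replicate 1, and 2.13 and 3.23 in the dmpnpaseKO mitochondrial libraries. The lowest value came from a cytosolic library in both genotypes, but the control fractions overlapped and their difference had an exact permutation p = 0.667. The ratio of SPARC to Col4a1 ranged from 0.184 to 0.550 in the 5 libraries where both were above 0. None of the 12 exact tests of ratios was below 0.05, which none of them could reach with so few libraries.

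**Figure D2:**
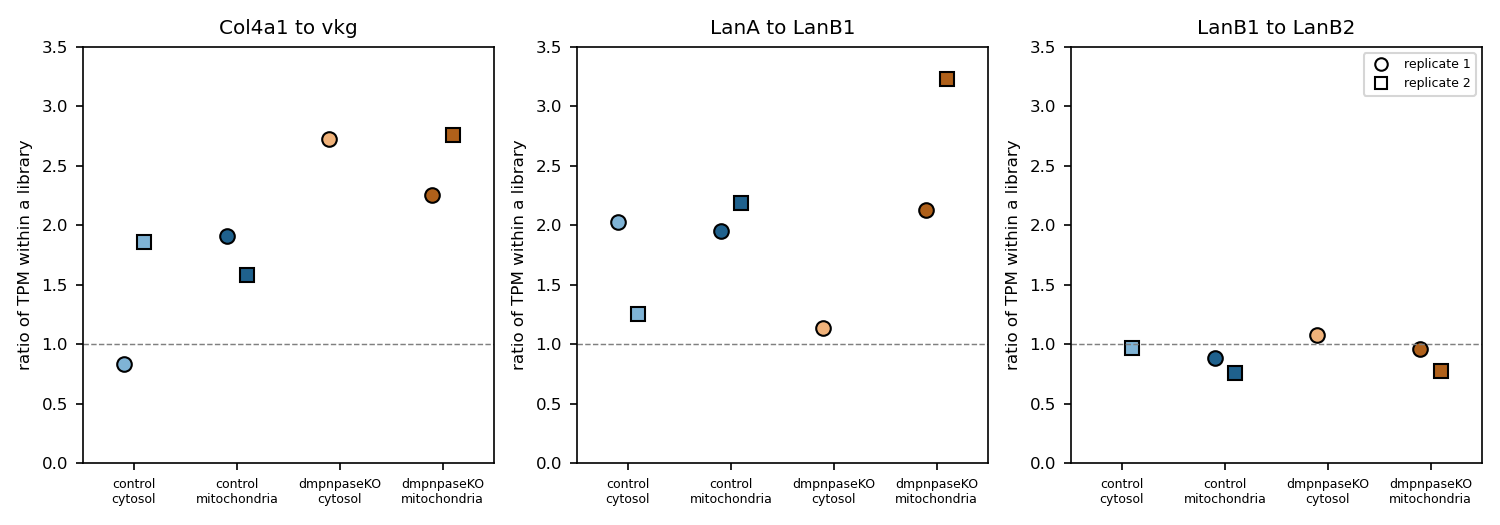
The ratio of TPM of 2 genes within a library (y axis, from 0) is shown for Col4a1 to vkg, LanA to LanB1 and LanB1 to LanB2 in the 4 groups, with circles for replicate 1, squares for replicate 2 and a dashed line at a ratio of 1. The Col4a1 to vkg ratio was 2.25 to 2.76 in the dmpnpaseKO libraries and 0.832 to 1.91 in the control libraries, while LanB1 to LanB2 stayed between 0.761 and 1.08.

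The first comparison across fractions asked whether J2-recovered RNA of the 6 genes was higher in the mitochondrial fraction of control larvae. Differences were tested with limma on log2(TPM + 1) after scaling each library on its rRNA pseudogenes, for the 475 genes with a mean TPM of at least 1. Col4a1, vkg and SPARC passed that minimum, largely through their dmpnpaseKO libraries, so counts among those that passed are given as a description. None of the 3 passed the limma test between the control fractions, with log2 differences (mitochondria minus cytosol) of 0.10 (SE 1.01, adjusted p = 0.988) for Col4a1, 0.01 (SE 0.71, adjusted p = 0.998) for vkg and -0.39 (SE 0.64, adjusted p = 0.840) for SPARC. Of all 475 genes, 0.842% were called higher in the control mitochondrial libraries. Among the 443 nuclear-encoded genes tested, whose median log2 difference was 0.47, 18.1% lay below Col4a1, 9.26% below vkg and 3.16% below SPARC. The collagen IV and SPARC mRNAs were thus in the lower part of that distribution, by description only. Over the 3244 nuclear-encoded genes with a mean TPM of at least 0.1, the median was 0.059. Col4a1 lay above that median, and vkg and SPARC lay below it, so the place of Col4a1 depends on the minimum. The log2(TPM + 1) scale understates changes of genes near or under 1 TPM.

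LanA, LanB1 and LanB2 had mean TPM of 0.658, 0.307 and 0.331, below the minimum, and were tested in a limma fit of the 3276 genes with a mean of at least 0.1. They passed this lower minimum largely through their dmpnpaseKO libraries, so counts that include them are given as a description. The 3 laminin genes were higher in both control mitochondrial libraries than in both cytosolic ones, but the log2 differences were 0.11, 0.04 and 0.06 on this scale, each with an adjusted p of 1. In that fit 0.153% of genes were called higher in the control mitochondrial libraries.

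In dmpnpaseKO larvae vkg was higher in the mitochondrial fraction by 1.66 on the log2 scale (SE 0.71, limma adjusted p = 0.0420). Col4a1 (2.23, SE 1.01, adjusted p = 0.0526) and SPARC (1.37, SE 0.64, adjusted p = 0.0597) did not pass the threshold of 0.05. So 1 of 3 genes was called where 81.1% of all tested genes were called higher. At the lower minimum LanA (1.31, SE 0.24, adjusted p = 0.00211), LanB1 (0.58, SE 0.22, adjusted p = 0.0376) and LanB2 (0.69, SE 0.21, adjusted p = 0.0149) were called by limma, where 84.5% of genes were. In this fit vkg had an adjusted p of 0.0516, so 3 of 6 genes were called. The call of vkg at the higher minimum was held only without control cytosol replicate 2 or dmpnpaseKO cytosol replicate 1, and was lost when any of the other 6 libraries was left out.

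These calls rest on the cytosolic library in which all 6 genes were listed at 0. Without it, the log2 differences were 0.60 for Col4a1 (limma adjusted p = 0.490), 0.63 for vkg (adjusted p = 0.308) and 0.44 for SPARC (adjusted p = 0.493). On a scaling to summed nuclear-encoded TPM without the same library, an alternative chosen after seeing the data, the direction turned for all 3 genes, to -1.61, -1.30 and -1.38. On the rRNA pseudogene scaling none of the 3 was called without it, while 76.2% of all tested genes were called higher in mitochondria. LanA kept its call (1.01, adjusted p = 0.0110), but LanB1 (0.31, adjusted p = 0.214) and LanB2 (0.43, adjusted p = 0.0761) did not, where 64.4% of the 3276 genes were called higher. With 1 cytosolic library left in that arm, the fit assumes that it varies like the libraries of the other groups.

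In TPM, the 2 dmpnpaseKO mitochondrial libraries were 1.34 and 1.69 times dmpnpaseKO cytosol replicate 1 for Col4a1. The same ratios ran from 1.32 to 2.05 for vkg, from 1.01 to 1.98 for SPARC, from 1.04 to 2.60 for LanB1, from 1.45 to 2.92 for LanB2 and from 2.96 to 4.85 for LanA. LanA had the highest ratios of the 6. Across the 443 nuclear-encoded genes the median log2 difference without replicate 2 was 2.02 (5th to 95th percentile 0.21 to 3.64). Col4a1 had 8.80% of these genes below it, vkg 9.26% and SPARC 6.55%. J2-recovered RNA of Col4a1, vkg and SPARC thus differed less between these libraries than that of most of the 443 genes, with 1 cytosolic library. In the fit to all 8 libraries, the median log2 difference of the 443 genes was 2.42, beside 1.66 for Col4a1, vkg and SPARC. It was 0.617 over the 3244 nuclear-encoded genes past the minimum of 0.1, beside 1.34 for the 6 genes. Their place among other genes therefore depends on the minimum here too.

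**Figure D3:**
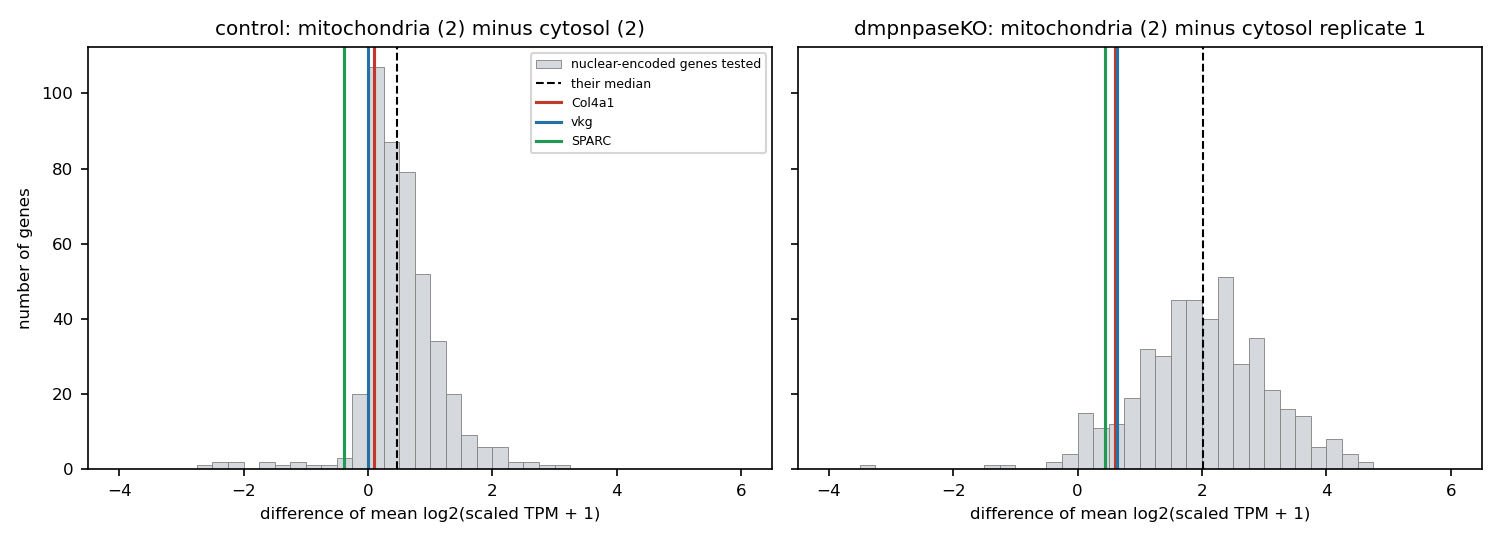
The histograms show the mitochondrial minus cytosolic difference of mean log2(scaled TPM + 1) (x axis) for the 443 nuclear-encoded genes tested (y axis, number of genes), on the left in control larvae and on the right in dmpnpaseKO larvae with cytosol replicate 1 only. A dashed line marks the median (0.47 and 2.02), and coloured lines mark Col4a1 (0.10 and 0.60), vkg (0.01 and 0.63) and SPARC (-0.39 and 0.44), which lie below the median in both genotypes.

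Lists of related genes were summed in the same libraries to set the 6 genes beside others made at the ER. The summed TPM of the 6 genes in the dmpnpaseKO mitochondrial libraries was 1.33 to 1.97 times that of dmpnpaseKO cytosol replicate 1, and the sum over all nuclear-encoded genes was 3.69 to 7.45 times. For 9 ER chaperones and translocon subunits the ratios were 3.30 and 6.76. Hsc70-3, the fly BiP, was at 2.11 TPM in dmpnpaseKO cytosol replicate 1 and at 7.34 and 4.40 TPM in mitochondria. Calr, the ER calcium-binding chaperone calreticulin, was at 0.565 TPM and at 9.24 and 3.62 TPM. In the full limma fit at a minimum of 0.1, 9 of 9 of these ER genes were called higher in the dmpnpaseKO mitochondrial libraries, and 6 of 9 without cytosol replicate 2. Over all 3276 genes these shares were 84.5% and 64.4%, so the ER genes were called about as often as other genes without that library. The lower ratio of the summed TPM of the 6 genes, most of which is Col4a1, rests on 1 cytosolic library and was not tested. It does not hold for each gene, since the ratios of LanA (2.96 and 4.85) overlapped those of the ER list. In control larvae the mean summed TPM in mitochondria over that in cytosol was 1.69 for the 6 genes and 3.98 for the ER list. For all nuclear-encoded genes it was 1.60. These control ratios were not tested, and limma called 0 of the 9 ER genes between the control fractions, where 0.153% of genes were called higher.

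The other matrix gene lists gave other ratios, in part from sums close to 0. The 5 other basement membrane and matrix genes measured had summed TPM 16.7 to 29.8 times higher in the dmpnpaseKO mitochondrial libraries than in cytosol replicate 1. Their sum in that cytosolic library was only 0.0984 TPM, with 2 of the 5 genes above 0, so these ratios are set by values near the floor. Of these, Pxn (peroxidasin, which crosslinks collagen IV) and Ppn (papilin, a matrix glycoprotein) passed the minimum of 0.1, and both were called higher in the dmpnpaseKO mitochondrial libraries by limma with and without cytosol replicate 2. Ppn was at 0.0472 TPM in dmpnpaseKO cytosol replicate 1 and at 1.66 and 1.00 TPM in the dmpnpaseKO mitochondrial libraries. Pxn was listed at 0 in all 4 cytosolic libraries. These levels are far below those of Col4a1 and vkg in the cytosol. For the 9 measured genes of collagen folding, modification and export the ratios were 1.69 and 3.69, and 3 of the 4 that could be tested were called higher in the dmpnpaseKO mitochondrial libraries (1 of 4 without cytosol replicate 2). Among them Plod, the lysyl hydroxylase of collagen, was at 0.607 TPM in dmpnpaseKO cytosol replicate 1 and at 0.854 and 0.494 TPM in the mitochondrial libraries. For 9 matrix receptors and adhesion genes, such as the integrin β subunit mys, the ratios were 4.84 and 8.75, and 6 of 6 that could be tested were called in both fits. These counts stand beside the same 84.5% and 64.4% of all genes.

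**Figure D4:**
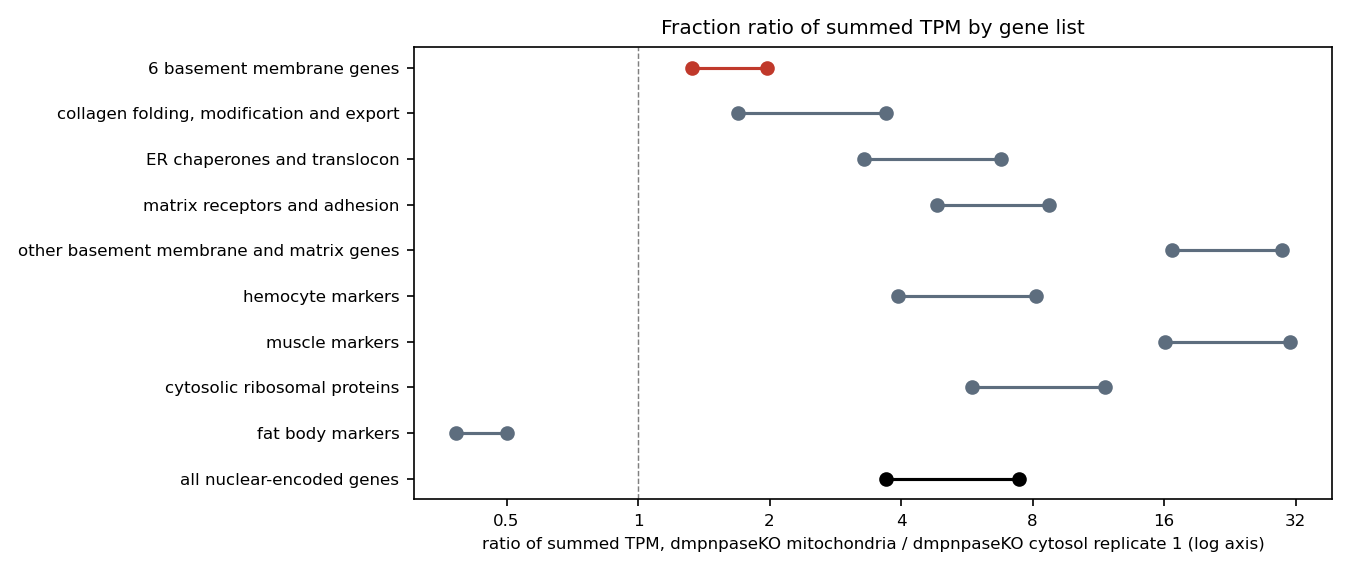
For each gene list, the 2 joined points give the summed TPM of the 2 dmpnpaseKO mitochondrial libraries divided by that of dmpnpaseKO cytosol replicate 1 (x axis, log scale), with a dashed line at 1. The 6 basement membrane genes (red, 1.33 and 1.97) lie below all nuclear-encoded genes (black, 3.69 and 7.45) and the ER chaperones (3.30 and 6.76), and above the fat body markers (0.382 and 0.501).

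The next comparison asked how the genotype changed the 6 genes in the mitochondrial fraction. All 6 rose relative to the rRNA pseudogenes. By limma, the log2 change (dmpnpaseKO minus control) was 2.84 for Col4a1 (SE 1.01, adjusted p = 0.0179), 2.02 for vkg (SE 0.71, adjusted p = 0.0171) and 2.11 for SPARC (SE 0.64, adjusted p = 0.00770). All 3 were called, where 78.7% of all tested genes were called higher. At the lower minimum LanA (1.43, adjusted p = 0.00208), LanB1 (0.76, adjusted p = 0.0136) and LanB2 (0.83, adjusted p = 0.00720) were called by limma too. So 6 of 6 were called higher, where 83.5% of genes were. The laminin genes passed that minimum largely through these dmpnpaseKO libraries, which favours such a call, so the count is a description. In TPM, the lower dmpnpaseKO library was above the higher control library by 5.95-fold for Col4a1, 4.12-fold for vkg, 7.51-fold for SPARC, 8.21-fold for LanA, 4.97-fold for LanB1 and 5.65-fold for LanB2. How many other genes were separated in this way was not counted. As a ratio of group means, the summed TPM rose 11.1-fold for the 6 genes and 8.53-fold for all nuclear-encoded genes.

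The rise was shared with most nuclear-encoded genes. The median log2 change of the 443 nuclear-encoded genes past the minimum of 1 was 2.25, beside 2.11 for Col4a1, vkg and SPARC. It was 0.60 over the 3244 nuclear-encoded genes past the minimum of 0.1, beside 1.72 for the 6 genes, so their place among other genes depends on the minimum. Of the 443 nuclear-encoded genes, 72.2% lay below Col4a1, 38.6% below vkg and 44.0% below SPARC. Leaving out 1 library changed these calls, since without control mitochondria replicate 2, and likewise without dmpnpaseKO mitochondria replicate 1, limma called 0 of the 3 genes, and without either of the other mitochondrial libraries it called 1. When libraries were scaled to the same summed nuclear-encoded TPM in place of the rRNA pseudogenes, limma called none of the 3 in any contrast. The rise of the 6 genes is thus stated relative to rRNA.

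The share of the 6 genes in nuclear-encoded TPM gives that second view. It was 0.301% and 0.142% in the control mitochondrial libraries and 0.283% and 0.385% in the dmpnpaseKO mitochondrial libraries (exact permutation p = 0.667). It was 0.0638% and 0.318% in the control cytosolic libraries, and 1.07% and 0 in the dmpnpaseKO cytosolic pair (exact permutation p = 1). The groups overlapped in both fractions. With ribosomal protein genes left out of the denominator, the mitochondrial shares were 0.332% and 0.158% in the control and 0.377% and 0.512% in dmpnpaseKO, which did not overlap (exact permutation p = 0.33, the smallest possible). All 12 exact tests of shares had an adjusted p of 1. The highest share was in dmpnpaseKO cytosol replicate 1, and Col4a1 alone made up 0.582% of the nuclear-encoded TPM there. It made up 0.132% and 0.211% in the dmpnpaseKO mitochondrial libraries, 0.158% and 0.0692% in the control mitochondrial libraries and 0.0261% and 0.145% in the control cytosolic libraries. Col4a1 ranked 13 among nuclear-encoded genes in dmpnpaseKO cytosol replicate 1 and between 62 and 267 in the other 6 libraries with a value.

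In the cytosol, the comparison of genotypes called 0% of genes higher at either minimum. By limma, 0 of 475 genes passed at an adjusted p of 0.05 and 47 had an unadjusted p under 0.05. The log2 changes were 0.70 for Col4a1, 0.36 for vkg and 0.36 for SPARC, each with an adjusted p of 1, and 0.23, 0.21 and 0.20 for LanA, LanB1 and LanB2. These means combine a library with the genes at 0 and one with the genes above both controls. In TPM, dmpnpaseKO cytosol replicate 1 was above the higher control cytosol library by 7.50-fold for Col4a1, 5.12-fold for vkg, 4.21-fold for SPARC, 11.6-fold for LanA, 12.8-fold for LanB1 and 11.5-fold for LanB2. Without replicate 2, the log2 change was 2.34 for Col4a1 (limma adjusted p = 0.0910), 1.39 for vkg (adjusted p = 0.128) and 1.29 for SPARC (adjusted p = 0.152), beside a median of 0.66 over nuclear-encoded genes. In that comparison 95.9% of nuclear-encoded genes lay below Col4a1, 77.2% below vkg and 72.2% below SPARC. None of the 3 passed the test.

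Whether the fraction difference itself differed between genotypes was tested as an interaction. It was 2.13 for Col4a1 (limma adjusted p = 0.199), 1.66 for vkg (adjusted p = 0.158) and 1.76 for SPARC (adjusted p = 0.105), and none passed where 30.5% of all tested genes were called higher. At the lower minimum LanA passed (1.20, SE 0.34, adjusted p = 0.0266) and LanB1 (0.55, adjusted p = 0.146) and LanB2 (0.63, adjusted p = 0.0900) did not, where 55.2% of genes were called higher. Without dmpnpaseKO cytosol replicate 2 it was 0.50 for Col4a1, 0.63 for vkg and 0.82 for SPARC, again with none called, and without dmpnpaseKO cytosol replicate 1, which left the library of zeros alone in its arm, all 3 were called. Without dmpnpaseKO cytosol replicate 2 the interaction of LanA was 0.90 with an adjusted p of 0.0585.

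Markers of the tissues that make basement membrane moved in different ways, and their part in the results above was not tested. In bulk fractions, fewer cells of a type, less RNA per cell and a difference in larval stage cannot be told apart. The genotypes were matched by age, and the paper reports that homozygous knockouts died as larvae. The larval stage reached was not compared here. The summed TPM of the 8 fat body markers was 4.15 and 47.2 in the control cytosolic libraries, 49.5 and 29.6 in the control mitochondrial libraries, 74.9 and 52.4 in the dmpnpaseKO cytosolic pair and 37.5 and 28.7 in the dmpnpaseKO mitochondrial libraries. Within the list the genes diverged. Lsp2, a storage protein of the larval fat body, was at 4.68 and 2.02 TPM in the control mitochondrial libraries and at 0.00660 TPM and 0 in the dmpnpaseKO mitochondrial libraries. The lipoprotein gene apolpp was at 3.82 and 3.10 TPM in the control mitochondrial libraries and at 33.9 and 26.1 TPM in the dmpnpaseKO mitochondrial libraries. Of the 5 fat body markers tested by limma at a minimum of 1, 4 were lower in the dmpnpaseKO mitochondrial libraries than in the control mitochondrial libraries and 0 were higher, where 2.53% of all tested genes were called lower. At a minimum of 0.1, 4 of the 8 markers were lower and 1 was higher, where 0.672% of genes were called lower. Apoltp, which encodes a lipid transfer particle protein, was at 0.0734 and 0.0454 TPM in the control mitochondrial libraries and at 3.41 and 2.46 TPM in the dmpnpaseKO mitochondrial libraries. All 4 control libraries held more Lsp2 than the 4 dmpnpaseKO libraries.

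The 7 measured hemocyte markers summed to 0.0487 and 0.0310 TPM in the control cytosolic libraries, 0.790 and 0.462 TPM in the control mitochondrial libraries, 0.307 TPM and 0 in the dmpnpaseKO cytosolic pair, and 2.50 and 1.21 TPM in the dmpnpaseKO mitochondrial libraries. Hml, which encodes hemolectin and defines mature plasmatocytes, was at 0.111 and 0.127 TPM in the control mitochondrial libraries and at 0.767 and 0.272 TPM in the dmpnpaseKO mitochondrial libraries. It was listed at 0 in both control cytosol libraries and was at 0.0182 TPM and 0 in the dmpnpaseKO cytosolic pair. Of the 4 hemocyte markers tested at a minimum of 0.1, 3 were higher in the dmpnpaseKO mitochondrial libraries than in the control mitochondrial libraries, where 83.5% of all genes were. The 7 measured muscle markers had summed TPM 16.1 to 31.1 times higher in the dmpnpaseKO mitochondrial libraries than in dmpnpaseKO cytosol replicate 1. The 4 of 6 cuticle markers that could be tested were all called lower by limma in dmpnpaseKO than in the control mitochondrial libraries. Over all genes 2.53% were called lower at a minimum of 1 and 0.672% at 0.1. Cpr65Av, a cuticle marker too low to be tested, went the other way. It was at 0.0479 TPM and 0 in the control and at 0.0651 and 0.169 TPM in the dmpnpaseKO mitochondrial libraries.

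The genes most like Col4a1 and vkg across libraries were named by correlation, as a description. Of the 440 other nuclear-encoded genes tested, the 5 with the highest Pearson correlation over the 8 libraries to the mean log2 value of Col4a1 and vkg were Adh (r = 0.989), Glt (0.983), Gpdh1 (0.981), FBgn0040813, which had no symbol in the tables used (0.978), and Desat1 (0.973). Adh encodes alcohol dehydrogenase, Glt encodes glutactin, a glycoprotein of basement membranes, Gpdh1 encodes glycerol-3-phosphate dehydrogenase and Desat1 encodes a fatty acid desaturase. Glt was at 6.14 and 5.41 TPM in the dmpnpaseKO mitochondrial libraries, 3.13 TPM and 0 in the dmpnpaseKO cytosolic pair, 0.403 and 0.258 TPM in the control mitochondrial libraries and 0 and 0.407 TPM in the control cytosolic libraries. That is the pattern of SPARC and Col4a1, with overlap of the control fractions. Col4a1 correlated with vkg at r = 0.996 and with SPARC at r = 0.974. A high r was common. All of these genes share the same libraries, the zeros of dmpnpaseKO cytosol replicate 2 and the overall rise in dmpnpaseKO mitochondria. The median over the 440 genes was 0.851, and 135 had an r above 0.9.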

How the data were processed

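Reads of 8 J2 libraries (NEBNext directional kit, paired-end) were quantified by the authors with Salmon 0.11.3 against BDGP6 cDNA, and the TPM values were deposited for 13970 genes. The summing of transcripts to genes and the use of strand are not given in the sources used here. Groups came from the labels, and 0 value columns lacked a library. For this report, each library was scaled on the mean of the 8 rRNA pseudogenes the methods name, and log2(scaled TPM + 1) was fitted with limma 3.58.1 in R 4.3.3 (4 group means, eBayes with trend, Benjamini-Hochberg adjustment, threshold 0.05) for genes with a mean TPM of at least 1 (475) or 0.1 (3276). The fit was tested on simulated data. Ratios and shares used exact permutation tests (scipy 1.17.1), and correlations served only to name the 5 most similar genes. Named genes are the 6 chosen ones, list genes past a minimum, Cpr65Av and those 5. Members and lists were chosen with earlier results of these data known. Listed genes without a row, such as trol and Tango1, were not analysed here. The alternatives tried were other scalings, pseudocounts, minimums and variance models, a replicate block and leaving out libraries.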

Additional observations from a re-analysis of the deposited data

Results flagged for a closer look

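The mitochondrial minus cytosolic difference of LanA differed between the genotypes by 1.20 on the log2(TPM + 1) scale (limma adjusted p = 0.0266, interaction term, genes with a mean TPM of at least 0.1), and was picked out because this test of the difference passed the threshold. In the same test 55.2% of the 3276 genes were called higher, so the call does not set LanA apart. The difference was 1.31 in dmpnpaseKO and 0.11 in control larvae. LanA was listed at 0 in dmpnpaseKO cytosol replicate 2, and without that library the interaction was 0.90 with an adjusted p of 0.0585.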

How the results depend on the processing

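On other scalings, the control fraction comparison (5 genes called) gave 11 calls with unscaled TPM, 3 with the geometric mean of the pseudogenes, 13 with median of ratios and 1 with summed nuclear-encoded TPM. It gave 3 without a filter, 1 without the trend, 0 in a fit to its 4 libraries alone and 0 to 15 with 1 library left out. The dmpnpaseKO fraction comparison (389) gave 230 with median of ratios, 4 with the nuclear sum, 2769 at a mean TPM of 0.1, 116 at 5, 5705 without a filter and 311 to 423 with 1 library left out. The genotype comparison in mitochondria (386) gave 32 with median of ratios, 10 with the nuclear sum, 191 with a pseudocount of 0.1, 2757 at 0.1, 112 at 5, 5525 without a filter and 259 to 417 with 1 library left out. In the cytosol (0) it gave 31 unscaled, 23 with median of ratios, 14 with a pseudocount of 0.1 and 0 to 28 with 1 library left out. The interaction (148) gave 0 unscaled, 2 with median of ratios, 0 with the nuclear sum, 4 and 303 with pseudocounts of 0.1 and 10, 1817 at 0.1, 0 at 5, 2167 without a filter, 0 without the trend and 1 to 390 with 1 library left out. Of the chosen genes, the dmpnpaseKO fraction comparison called 1 of 3, and 2 unscaled or with a pseudocount of 10, 0 with the geometric mean, median of ratios, nuclear sum, a pseudocount of 0.1, no trend or its 4 libraries alone, 3 of 6 at 0.1, 2 without a filter and 0 to 3 with 1 library left out. The genotype comparison in mitochondria called 3 of 3, and 0 with median of ratios or the nuclear sum, 1 with a pseudocount of 0.1, 6 of 6 at 0.1, 4 of 6 without a filter (not Col4a1, adjusted p = 0.109, or vkg, 0.0643), 1 of 1 at 5 and 0 to 3 with 1 library left out. The interaction called 0, and 1 at 0.1 or without a filter and 0 to 3 with 1 library left out. In the control fractions Col4a1 turned to -0.25, -0.081 and -0.0032 and vkg to -0.29, -0.25 and -0.0066 with the geometric mean, median of ratios and a pseudocount of 10. With 1 library left out, they ranged from -0.67 to 0.87 and from -0.47 to 0.48, and SPARC from -0.96 to 0.19. In the cytosol, median of ratios gave -0.032 for Col4a1, -0.33 for vkg and -0.046 for SPARC, and leaving out 1 library gave ranges of -0.93 to 2.34, -0.67 to 1.39 and -0.58 to 1.29. With the nuclear sum, the dmpnpaseKO fraction difference of SPARC was -0.042 and the interaction of vkg -0.0030. Chosen after seeing the data, the nuclear sum without dmpnpaseKO cytosol replicate 2 gave fraction differences of -1.61 (Col4a1), -1.30 (vkg) and -1.38 (SPARC) in dmpnpaseKO and interactions of -2.06, -1.45 and -0.95. Its calls were 184 and 0 for the control and dmpnpaseKO fractions, 37 and 151 for genotype in mitochondria and cytosol and 1 for the interaction, with 0 chosen genes in the dmpnpaseKO fractions and 0 for genotype in mitochondria. The mean TPM of 0.1 without that library, also chosen after seeing the data, called 0, 2114, 2700, 1 and 0 genes in the same order, and 6 chosen genes for genotype in mitochondria. The cause of these shifts was not tested. The libraries share only replicate numbers: correlations of same-numbered deviations from group means ranged from -0.0126 to 0.68, and a replicate block gave 239 interaction calls and 3 of 3 chosen genes in the dmpnpaseKO fractions. In dmpnpaseKO, the log2 Col4a1 to vkg ratio differed by -0.13 (mitochondria minus cytosol replicate 1). With a pseudocount of 0.1 the difference turned to 0.59. The pseudocount brings in dmpnpaseKO cytosol replicate 2, where both genes were listed at 0 and so enter as equal, so 0.59 does not measure the ratio. TPM carry no depth, so which of these small values lie within counting error is unknown.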
